A study of Mus musculus with 52 samples.

Results

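The Polycomb core genes described here are Ezh1, Ezh2, Eed and Suz12 of Polycomb repressive complex 2 (PRC2) and Bmi1, Pcgf2, Ring1, Rnf2, Cbx2 and Cbx7 of Polycomb repressive complex 1 (PRC1). They were chosen by name, and all 10 symbols matched 1 row each of the 28786 gene rows deposited. The cells came from bone marrow of mice aged 6 to 8 weeks, after red cells were lysed, and every library carries the label primed HSCs (haematopoietic stem cells). The strain was C57BL/6 and the genotype Cd4-cre;R26Tdtomato, a reporter design in which Cre driven by Cd4 sequences releases tdTomato from the Rosa26 locus. Each of the 52 libraries is 1 cell read by Smart-seq2, a plate method that copies full-length transcripts and carries no molecular identifiers. The sources used here give neither the number of animals nor the sort gate, and do not define "primed".

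Polycomb complexes keep genes silent. PRC2 places methyl groups on lysine 27 of histone H3 through its catalytic subunit, which is either EZH2 or its paralogue EZH1, and it needs the subunits EED and SUZ12 to be active. PRC1 places ubiquitin on histone H2A through RING1 or RNF2 (also called RING1B), each paired with a PCGF protein such as BMI1 or PCGF2, and the CBX proteins of canonical PRC1 bind the mark that PRC2 leaves. In blood, EZH2 is known mainly from dividing cells and EZH1 from resting ones, and BMI1 and CBX7 are known for their part in stem cell self-renewal.

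With a single label and no animal named, the cells were treated as 1 sample without a replicate. Classes of cells were made from 3 axis genes, and no class was tested against another. The spread after ± is the SD (standard deviation) across cells, and intervals on shares of cells are exact Clopper-Pearson 95% intervals, which cover counting error only. Levels are CPM, the read count scaled to each cell's total, and a gene is called present in a cell at 10 CPM or more. Differences are differences of mean log2(CPM + 1), and a correlation is Spearman's, given as a description over cells of unequal depth.

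The 49 cells kept held 85519 to 12446477 reads each (median 2187579). T cell markers (Cd4, Cd3e, Cd3g, Trbc2 and Bcl11b) had 0 reads in every kept cell. The 9 erythroid markers summed to a median of 9096 CPM (range 230.2 to 18607 CPM), the 9 HSC markers summed to a median of 549.8 CPM (range 3.31 to 2662 CPM), and the erythroid sum was the higher in 43 of 49 cells labelled HSCs (8 of 14 Cd34-positive and 35 of 35 Cd34-negative, classes defined below). Some cells stand apart. Cell 9, the shallowest, had 7741 CPM of B cell markers against at most 707.3 CPM elsewhere, and cell 34 had 46053 CPM of neutrophil and monocyte markers against at most 2427 CPM elsewhere. Cells 6 and 13 correlated at 0.919 over log2 levels of all tested genes and cells 23 and 25 at 0.710, against a median of 0.402 over the 1176 pairs. The co-presence counts and the main differences and correlations by class are also given without cells 9, 13, 23 and 34.

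The cells were ordered by 3 genes. Cd34 was listed here as a marker of multipotent progenitors and not of HSCs. Klf1 encodes a master regulator of red cell development, and Mki67 encodes Ki-67, which is made by dividing cells. Cd34 was present in 14 cells, called Cd34-positive, and absent at this level from 35. Klf1 divided the cells into tertiles of 17, 16 and 16 cells with medians of 11.8, 742.9 and 972.3 CPM. Mki67 was present in 37 cells and absent from 12. The axes overlap: 13 of the 14 Cd34-positive cells were in the low Klf1 tertile and 10 of the 14 were Mki67-negative, so the effects of the 3 axes cannot be told apart. Only cell 2 was Cd34-positive in the high Klf1 tertile, and no comparison by Cd34 was made there. Depth followed the classes as well, with medians of 1083632 reads in Cd34-positive and 2556759 reads in Cd34-negative cells, and the reads were also thinned to 1 depth. Other lineages' markers moved with Cd34 too. The HSC list summed to medians of 1873 CPM in Cd34-positive and 485.7 CPM in Cd34-negative cells, the erythroid list to 2090 and 11476 CPM, the neutrophil and monocyte list to 607.8 and 0.782 CPM (Elane at 0 in every kept cell), and the megakaryocyte list to 411.9 and 3.29 CPM. Their part in the differences below was not tested.

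The regions before the start sites of the 4 PRC2 core genes are shown, because the results turn on these genes. The sequences run from 250 bases before the RefSeq start to 30 bases after it (RefSeq, GRCm38.p6), at chr11:101226434-101226713 (minus strand) for Ezh1, chr6:47595001-47595280 (minus strand) for Ezh2, chr7:89980947-89981226 (minus strand) for Eed and chr11:79992856-79993135 (plus strand) for Suz12. Capitals mark matches, on either strand, to an E2F motif (TTTGGCGC, TTTCCCGC, TTTCGCGC or TTTGCCGC), the CCAAT box (CCAAT), a KLF motif (CCNCNCCC) or a GATA motif (AGATAA or TGATAA). Neighbouring matches can share bases.
Ezh1: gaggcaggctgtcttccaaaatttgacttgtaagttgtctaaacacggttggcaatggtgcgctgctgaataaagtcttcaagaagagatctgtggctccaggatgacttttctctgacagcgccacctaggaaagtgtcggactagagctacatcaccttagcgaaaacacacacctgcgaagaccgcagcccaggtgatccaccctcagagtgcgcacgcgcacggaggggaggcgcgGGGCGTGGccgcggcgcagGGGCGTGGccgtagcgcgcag
Ezh2: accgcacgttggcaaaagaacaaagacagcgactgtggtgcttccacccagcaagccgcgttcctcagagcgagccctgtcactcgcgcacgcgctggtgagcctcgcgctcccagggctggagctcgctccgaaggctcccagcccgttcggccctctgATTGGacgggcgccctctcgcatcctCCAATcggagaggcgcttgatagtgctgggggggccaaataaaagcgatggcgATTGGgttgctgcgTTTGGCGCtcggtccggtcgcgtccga
Eed: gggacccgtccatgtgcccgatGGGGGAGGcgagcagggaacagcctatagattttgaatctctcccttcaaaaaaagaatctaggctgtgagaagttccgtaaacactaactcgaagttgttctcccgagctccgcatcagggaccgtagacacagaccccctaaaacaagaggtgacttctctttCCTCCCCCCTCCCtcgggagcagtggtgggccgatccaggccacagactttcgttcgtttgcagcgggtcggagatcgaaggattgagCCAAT
Suz12: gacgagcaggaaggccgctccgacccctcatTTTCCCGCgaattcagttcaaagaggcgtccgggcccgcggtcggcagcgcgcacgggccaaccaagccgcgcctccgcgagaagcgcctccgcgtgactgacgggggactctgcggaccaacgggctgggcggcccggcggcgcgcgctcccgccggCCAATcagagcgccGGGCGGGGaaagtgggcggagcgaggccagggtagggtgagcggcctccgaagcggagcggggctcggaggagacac

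The Ezh2 window held 1 E2F match, starting at base 4 after the start site, and 3 CCAAT boxes. The Suz12 window held 1 E2F match, 219 bases before the start, with 1 CCAAT box and 1 KLF match. The Ezh1 window held 2 KLF matches and the Eed window 3 KLF matches and 1 CCAAT box, and neither held an E2F match. None of these 4 windows held a GATA match. Over 32851 promoter windows of the same length, 2.12% held an E2F match, 36.1% a CCAAT box, 48.2% a KLF match and 17.9% a GATA match. Of the 10 members 9 had an entry in that table, and Cbx2 had none. The KLF letters are short and frequent, and a match is a description of the sequence.

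**Figure D1:**
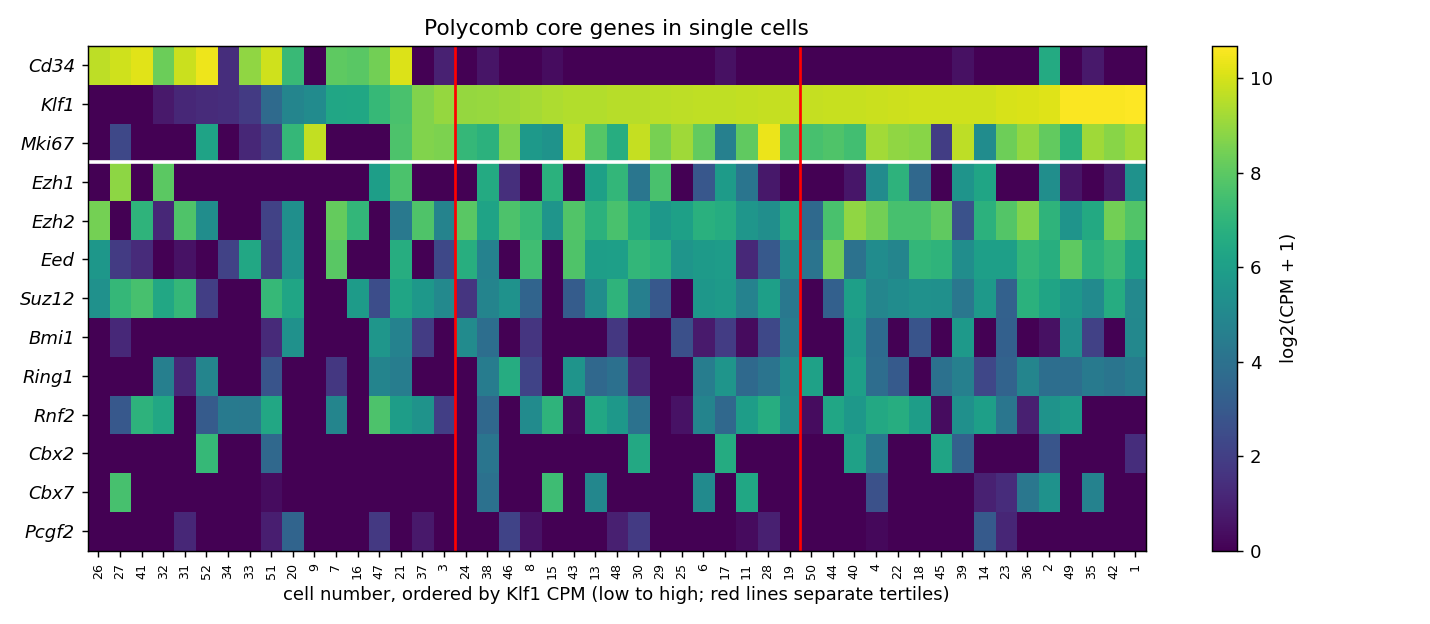
Levels of Cd34, Klf1, Mki67 (top 3 rows) and the 10 Polycomb core genes (lower rows) as log2(CPM + 1) in each of the 49 cells, ordered by Klf1 from low to high; red lines separate the tertiles. Cd34 is found mostly at the left, Ezh2 and Eed fill nearly all cells of the high tertile, and Ezh1, Bmi1, Cbx2 and Cbx7 are scattered over fewer cells.

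Ezh2 was the catalytic PRC2 subunit found in most cells, and Ezh1 came on in a minority. Ezh2 (ENSMUSG00000029687, chromosome 6, 47530139 to 47595341, minus strand) was present in 41 of 49 cells (83.7%, interval 70.3 to 92.7), with a lowest, median and highest level of 0, 108.7 and 477.0 CPM. Ezh1 (ENSMUSG00000006920, chromosome 11, 101191115 to 101226463, minus strand) was present in 19 of 49 cells (38.8%, interval 25.2 to 53.8), at 0, 0.529 and 466.2 CPM. Where each was present its mean level was 108 ± 111 CPM for Ezh1 and 159.2 ± 114 CPM for Ezh2. Per kilobase of exon the mean over cells was 5.65 CPM for Ezh1 and 19.98 CPM for Ezh2, and per kilobase of the longest transcript 10 and 47.9 CPM. Ezh1 was lower than Ezh2 per length by both measures.

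Cell by cell, both genes were present in 15 cells, Ezh2 alone in 26, Ezh1 alone in 4 and neither in 4. The log2 ratio of Ezh1 to Ezh2 had a mean of -3.35 (median -3.97, range -8.66 to 8.87), and it was below 0 in 38 cells and above 0 in 8. Their correlation over cells was weak, at -0.19, and at -0.06 within the Cd34-negative cells. The 4 cells with Ezh1 alone were cell 27 (466.2 CPM), cell 32 (257.2 CPM), cell 47 (63.4 CPM) and cell 39 (45.6 CPM). Of these, cells 27, 32 and 47 were Cd34-positive and Mki67-negative, and cell 39 was Cd34-negative with 792.5 CPM of Mki67.

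All 15 cells with both Ezh1 and Ezh2 present were Mki67-positive, as were 37 of the 49 cells. Among the 37 Mki67-positive cells 15 had both, 20 Ezh2 alone, 1 Ezh1 alone and 1 neither. Among the 12 Mki67-negative cells 0 had both, 6 Ezh2 alone, 3 Ezh1 alone and 3 neither. Thinned to the lowest total, these counts were 15, 19, 0 and 3 in Mki67-positive cells and 0, 6, 3 and 3 in Mki67-negative cells. Without cells 9, 13, 23 and 34 they were 14, 19, 1 and 0, against 0, 6, 3 and 2. The median depth was 2556759 reads in Mki67-positive and 807892 reads in Mki67-negative cells. Ezh1 was present in only 3 of the 12 Mki67-negative cells, so few of them could hold both. No share over all gene pairs was taken for co-presence, and a link with Mki67 was not tested.

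**Figure D2:**
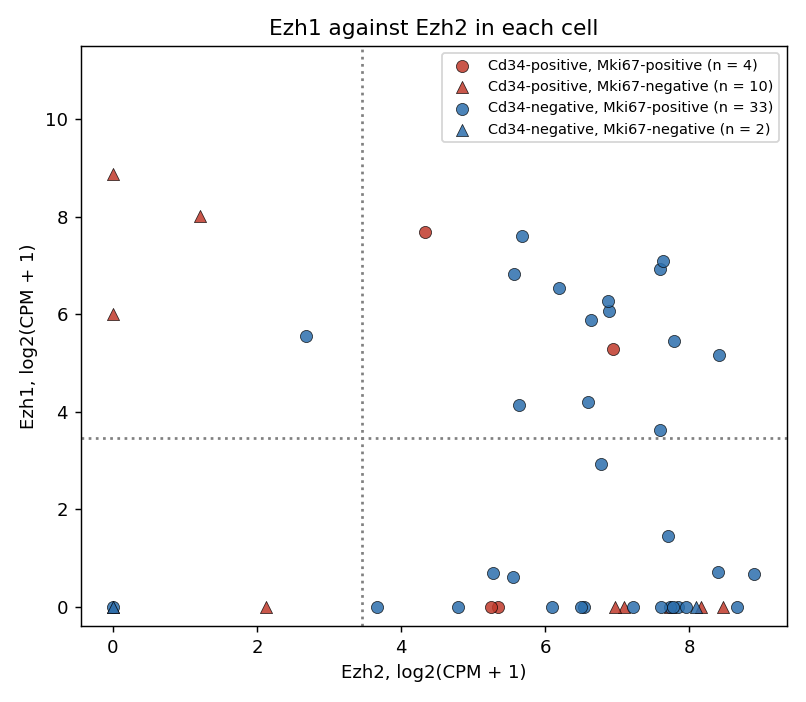
Ezh1 (vertical axis) against Ezh2 (horizontal axis) as log2(CPM + 1), 1 point per cell, coloured by Cd34 class (red positive, blue negative) and shaped by Mki67 class (circles positive, triangles negative); dotted lines mark 10 CPM. All 15 cells in the upper right field are circles, 3 of the 4 cells in the upper left field are red triangles, and 3 cells coincide at the origin.

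By Cd34, Ezh2 was lower in Cd34-positive cells and Ezh1 showed almost no difference of mean log2 levels. Ezh2 stood at 0, 38.3 and 351.1 CPM (lowest, median, highest) in the 14 Cd34-positive cells, against 0, 115.6 and 477.0 CPM in the 35 Cd34-negative cells. The classes overlap over nearly their whole range. Ezh2 was present in 9 of 14 Cd34-positive cells (64.3%, interval 35.1 to 87.2) and 32 of 35 Cd34-negative cells (91.4%, interval 76.9 to 98.2), and the difference of mean log2 levels was -1.88. Ezh1 was present in 5 of 14 Cd34-positive cells (35.7%, interval 12.8 to 64.9) and 14 of 35 Cd34-negative cells (40%, interval 23.9 to 57.9), with a difference of 0.04. Its mean without logs was higher in Cd34-positive cells, at 73.5 ± 140 CPM against 29.5 ± 48.6 CPM. Where present it averaged 205.7 ± 172 CPM in Cd34-positive and 73.0 ± 52.8 CPM in Cd34-negative cells. The Cd34-positive cells held the 3 highest Ezh1 levels, 466.2, 257.2 and 203.8 CPM, against at most 194.0 CPM in Cd34-negative cells. The log2 ratio of Ezh1 to Ezh2 averaged -1.98 ± 6.06 in Cd34-positive and -3.90 ± 3.45 in Cd34-negative cells, a difference of 1.92 that is smaller than the SD within either class (2.14 without cells 9, 13, 23 and 34). Restricted to Mki67-positive cells the Ezh2 difference was -1.10.

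Among the other PRC2 subunits, Eed was lower in Cd34-positive cells and Suz12 was not. Eed (ENSMUSG00000030619, chromosome 7, 89954654 to 89980983, minus strand), which binds the methyl mark and stimulates the enzyme, was present in 33 of 49 cells (67.3%). It stood at 0, 2.73 and 247.4 CPM in Cd34-positive cells, against 0, 58.7 and 353.3 CPM in Cd34-negative cells, a log2 difference of -1.88. That difference was -0.38 among Mki67-positive cells and -0.97 on the log2(CPM + 10) scale, short of -1 in both. Suz12 (ENSMUSG00000017548, chromosome 11, 79993106 to 80034123, plus strand), the scaffold subunit, was present in 34 of 49 cells (69.4%). It stood at 0, 74.9 and 189.2 CPM in Cd34-positive cells, against 0, 31.5 and 123.4 CPM in Cd34-negative cells, a log2 difference of 0.76. It was 0.49 without cells 9, 13, 23 and 34, and 0.13 with Cd34-positive set at 1 read. In cells thinned to the lowest total it was 1.65, with classes set anew there (16 Cd34-positive and 33 Cd34-negative cells). The classes overlap for both genes.

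A complete PRC2 core, meaning Ezh1 or Ezh2 together with Eed and Suz12, was present in 4 of 14 Cd34-positive cells (28.6%, interval 8.39 to 58.1) and 19 of 35 Cd34-negative cells (54.3%, interval 36.6 to 71.2). Among Mki67-positive cells the order was the other one, with 3 of 4 Cd34-positive and 18 of 33 Cd34-negative cells. Of the Cd34-positive, Mki67-negative cells 1 of 10 had it. No share over all genes was taken for joint presence. In all, the complete core was present in 23 of 49 cells (46.9%), and 22 of these had Ezh2. Absence at this level is a limit of detection in 1 cell and not absence of the protein.

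Over all genes, levels were lower in Cd34-positive cells, with a median difference of -0.71 over 9157 tested genes, and the members have to be read against that. Of the 10 members 9 passed the filter on low genes (at least 5 CPM on average, and reads in 10 cells or more), and Pcgf2 did not. Of these, Ezh2 and Eed lay at or below a difference of -1, as 40.8% of all tested genes did. None lay at or above 1, as 10.6% of all tested genes did. The median of the 9 was -0.24. Without cells 9, 13, 23 and 34 the differences were -2.23 for Ezh2, -2.07 for Eed and -0.09 for Ezh1, and the median of all genes -0.85. Ezh2 and Eed stood at percentiles 18.6 and 18.7 of all genes, Suz12 at 86.8 and Ezh1 at 72.1.

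**Figure D3:**
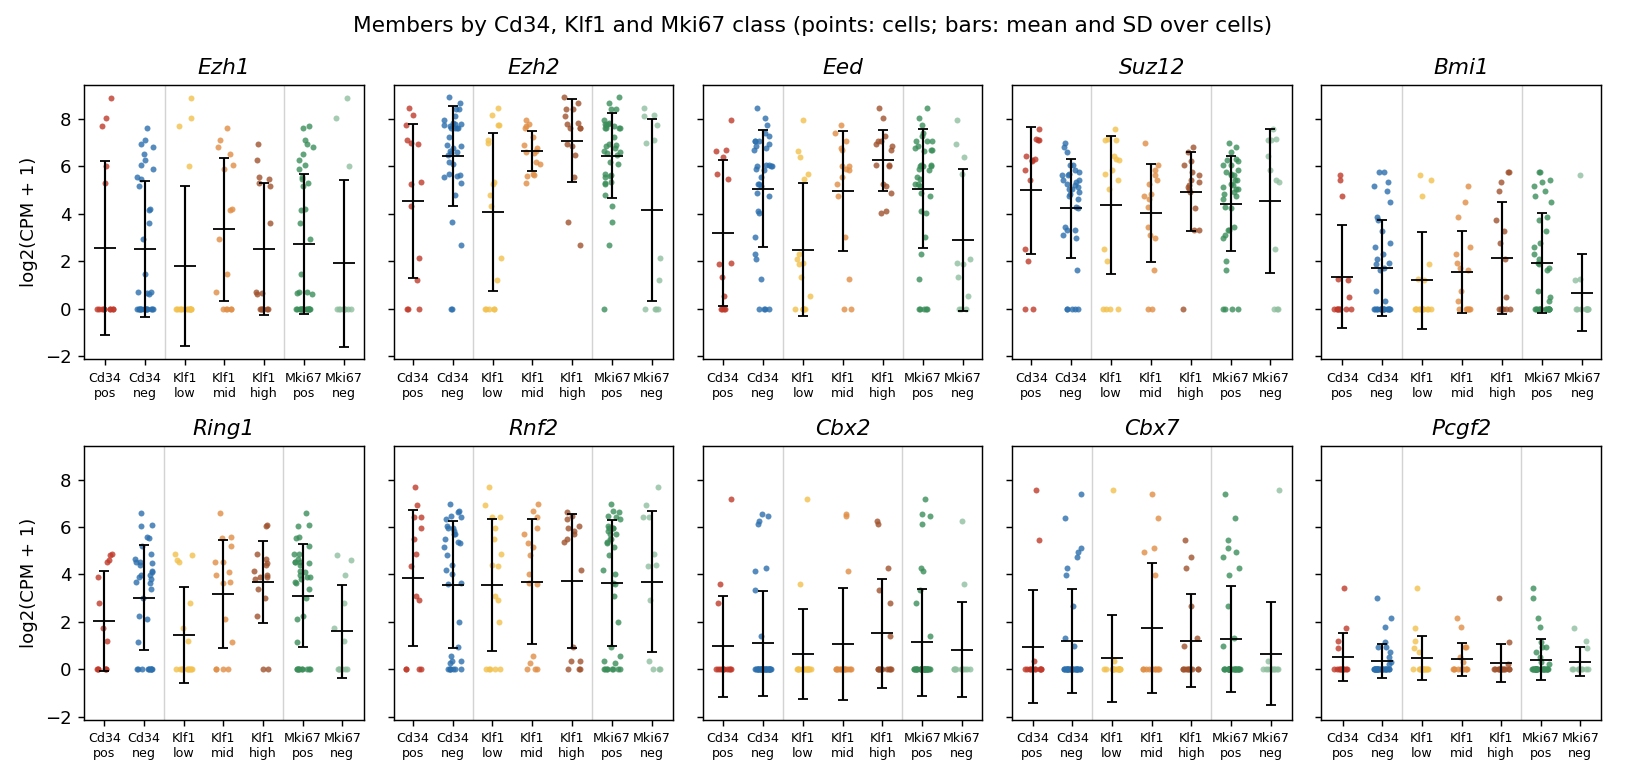
Each panel plots 1 member as log2(CPM + 1), with 1 point per cell, by Cd34 class (positive, negative), Klf1 tertile (low, middle, high) and Mki67 class (positive, negative); bars are the mean and SD over cells. Ezh2 and Eed have their lowest means in the Klf1 low tertile (4.07 and 2.48) and the Mki67-negative cells (4.15 and 2.89), and the classes overlap in every panel.

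By Klf1, Eed and Ezh2 had the highest differences among the members. Eed had medians of 2.66, 57.4 and 84.5 CPM in the low, middle and high tertiles and was present in 5 of 17, 12 of 16 and 16 of 16 cells. Ezh2 had medians of 26.7, 96.9 and 193.0 CPM and was present in 10 of 17, 16 of 16 and 15 of 16 cells. The high and low tertiles still overlap, since the lowest Ezh2 level of the high tertile was 5.39 CPM and the highest of the low tertile 351.1 CPM. High minus low, the log2 difference was 3.77 for Eed, 3.0 for Ezh2, 2.24 for Ring1 and 0.72 for Ezh1. The Ezh1 value was not stable: it was 1.43 with title codes in Y only, 1.40 among Mki67-positive cells, 2.33 among Cd34-negative cells (4 of them in the low tertile) and -0.04 in cells thinned to 500000 reads. Suz12 had medians of 50.5, 24.6 and 37.7 CPM, with no order along the tertiles, and a difference of 0.56 (0.08 without cells 9, 13, 23 and 34, and 2.17 among Cd34-negative cells).

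Over all tested genes the median difference was 1.14. Of the 9 tested members 3 (Eed, Ezh2 and Ring1) lay at or above 1, against 54.1% of all tested genes, and 0 at or below -1, against 7.81%. The members' median was 0.88, below that of the genes at large. Without cells 9, 13, 23 and 34 the differences were 3.59 for Eed, 2.40 for Ezh2 and 2.06 for Ring1, and the median of all genes 0.87. The erythroid list summed to medians of 2126, 12773 and 12615 CPM from the low to the high tertile, and its part was not tested. Eed lay at percentile 96.9 and Ezh2 at 90.3 of all genes, Ring1 at 78.3, and the other 6 between 23.97 and 44.4.

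Correlations with Klf1 gave the same members. They were 0.52 for Eed, 0.37 for Ring1 and 0.36 for Ezh2, against 0.16 for Ezh1 and -0.01 for Suz12. Those 3 of the 9 members were at or above 0.3, as were 26.3% of all tested genes, and none was at or below -0.3, as were 4.18%. Within the 35 Cd34-negative cells, where Klf1 ranged from 1.66 to 1648 CPM, 4 members were at or above 0.3, against 10% of all tested genes, and none at or below -0.3, against 1.93%. These were Eed (0.48), Suz12 (0.38), Ring1 (0.36) and Ezh2 (0.32). The lowest Klf1 levels there include those of cell 34 (1.66 CPM) and cell 9 (35.1 CPM), which had 0 reads of Ezh2, Suz12 and Ring1. Without cells 9, 13, 23 and 34 the 31 remaining cells gave 0.39 for Eed, 0.32 for Suz12, 0.27 for Ring1 and 0.16 for Ezh2, with 4.39% of all tested genes at or above 0.3. Over all cells but these 4 the correlation was 0.29 for Ezh2, 0.33 for Ring1 and 0.49 for Eed. The log2 ratio of Ezh1 to Ezh2 averaged -2.27 ± 5.73, -3.30 ± 3.38 and -4.55 ± 3.45 from the low to the high tertile. High minus low it differed by -2.28, and by -1.76 without cells 9, 13, 23 and 34.

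**Figure D4:**
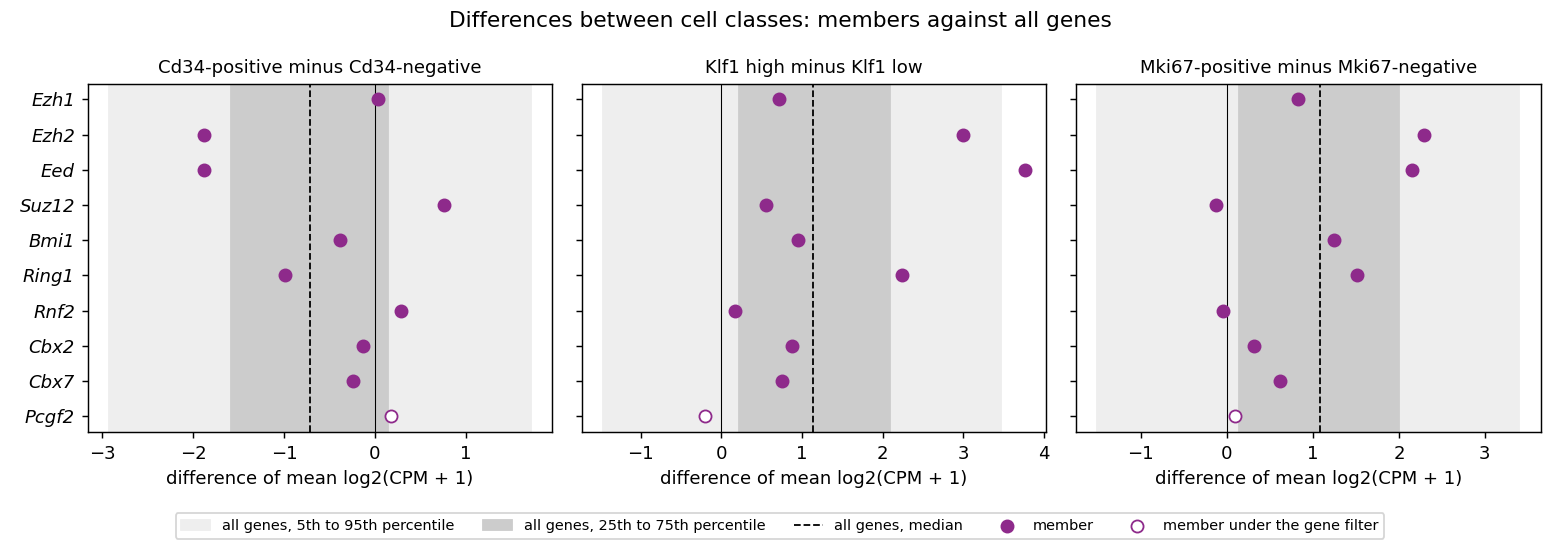
Difference of mean log2(CPM + 1) between cell classes (horizontal axis) for each member (rows), with the range of all tested genes in grey and their median as a dashed line; the open circle is Pcgf2, which did not pass the gene filter. Eed lies beyond the 95th percentile of all genes for Klf1 (3.77), Ezh2 and Eed lie outside the middle range in all 3 panels, and Ezh1 lies inside it in all 3.

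Ezh2 and Eed were present in a larger share of Mki67-positive than of Mki67-negative cells, and correlated weakly with the Mki67 level. Ezh2 was present in 35 of 37 Mki67-positive cells (94.6%, interval 81.8 to 99.3) and 6 of 12 Mki67-negative cells (50%, interval 21.1 to 78.9), with a log2 difference of 2.29. Where present, the Mki67-negative cells had no less of it, with means of 147.1 CPM in Mki67-positive and 229.9 CPM in Mki67-negative cells. Eed was present in 29 of 37 Mki67-positive cells and 4 of 12 Mki67-negative cells, with a difference of 2.15. Ezh1 was present in 16 of 37 Mki67-positive and 3 of 12 Mki67-negative cells, with a difference of 0.83. Its mean without logs had the other order, at 34.5 ± 55.3 CPM in Mki67-positive and 65.6 ± 146 CPM in Mki67-negative cells. Over all tested genes the median difference was 1.08. Without cells 9, 13, 23 and 34 the differences were 2.05 for Ezh2, 2.17 for Eed and 0.72 for Ezh1, and the median of all genes 1.02.

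Of the 9 tested members 4 (Ezh2, Eed, Ring1 and Bmi1) lay at or above a difference of 1, against 52.1% of all tested genes, and 0 at or below -1, against 8.20%. The correlations with Mki67 were weak for every member. They were 0.13 for Ezh2, 0.08 for Ezh1, 0.23 for Eed and -0.14 for Suz12, and none of the 9 reached 0.3, as 14.1% of all tested genes did, or -0.3, as 5.14% did. Under other settings Eed and Ezh2 did reach 0.3, at 0.39 and 0.34 in cells thinned to 500000 reads and 0.33 and 0.32 as Pearson's correlation of log2 levels. Within the Cd34-negative cells Ezh2 stood at 0.01, Ezh1 at -0.06 and Eed at -0.01, and again no member reached 0.3 (3.57% of all tested genes) or -0.3 (6.02%). Among Cd34-positive cells Ezh2 was present in 4 of 4 Mki67-positive and 5 of 10 Mki67-negative cells.

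Among PRC1 genes, the ubiquitin ligases were the widespread ones, and the others came on in few cells. Rnf2 (ENSMUSG00000026484, chromosome 1, 151458004 to 151500955, minus strand) was present in 30 of 49 cells (61.2%, interval 46.2 to 74.8) and Ring1 (ENSMUSG00000024325, chromosome 17, 34020792 to 34024680, minus strand) in 25 (51.02%, interval 36.3 to 65.6). At least 1 of them was present in 39 cells (79.6%) and both in 16 (32.7%). Per kilobase of exon their means were 9.14 CPM for Rnf2 and 4.76 CPM for Ring1. Rnf2 stood at 0, 23.7 and 207.1 CPM in Cd34-positive cells, against 0, 19.9 and 124.2 CPM in Cd34-negative cells, and its difference was 0.29. Ring1 stood at 0, 1.82 and 28.2 CPM in Cd34-positive cells, against 0, 13.1 and 96.3 CPM in Cd34-negative cells, and its difference was -0.99. Among Mki67-positive cells the Ring1 difference had the other direction, at 0.24. Across the Klf1 tertiles Ring1 was present in 4 of 17, 10 of 16 and 11 of 16 cells, whereas Rnf2 was present in 9, 11 and 10.

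The 2 PCGF genes among the members, Bmi1 and Pcgf2, were scarce. Other PCGF genes were present more widely: Pcgf6 in 53.1% of cells, Pcgf1 in 44.9%, Pcgf3 in 38.8% and Pcgf5 in 34.7%. Bmi1 (ENSMUSG00000026739, chromosome 2, 18677018 to 18686629, plus strand) had a read in 25 cells and was present at 10 CPM in 11 (22.4%, interval 11.8 to 36.6), with a highest level of 53.5 CPM. It was present in 3 of 14 Cd34-positive and 8 of 35 Cd34-negative cells, in 3, 3 and 5 cells of the Klf1 tertiles, and in 10 of 37 Mki67-positive and 1 of 12 Mki67-negative cells. Its CPM correlated with the reads per cell at 0.39 and that of Cbx2 at 0.34. These 2 of the 9 tested members reached 0.3 there, as did 22.1% of all tested genes, and none reached -0.3, against 1.41%. Pcgf2 (ENSMUSG00000018537, chromosome 11, 97688823 to 97700497, minus strand), the closest relative of Bmi1, was read in 14 cells, yet 0 of 49 cells held it at 10 CPM, which allows a share of up to 6.12% (3 of 49 cells; the exact interval ends at 7.25%). Its highest level was 9.73 CPM.

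The CBX genes, whose proteins read the PRC2 mark, were each present in few cells. Cbx7 (ENSMUSG00000053411, chromosome 15, 79915807 to 79971119, minus strand) was present in 9 cells (18.4%, interval 8.76 to 32.02) and Cbx2 (ENSMUSG00000025577, chromosome 11, 119022962 to 119031270, plus strand) in 8 (16.3%, interval 7.32 to 29.7). Only cell 38 had both. Cbx7 reached 189.9 CPM in cell 27, 165.4 CPM in cell 15 and 81.5 CPM in cell 11, and Cbx2 reached 142.6 CPM in cell 52. Cbx7 was present in 2 of 14 Cd34-positive cells and 7 of 35 Cd34-negative cells, and Cbx2 in 2 of 14 and 6 of 35.

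Presence of Cbx7 was also counted by the code in the library titles. Of the 9 cells with Cbx7, cells 6, 11, 13 and 27 have a title code that begins with F, and these are all 4 kept cells with that letter. They held 33.9, 81.5, 29.4 and 189.9 CPM, against a median of 0 CPM and presence in 5 of the other 45 cells (11.1%). Without cell 13, the remaining 3 cells with the letter all had it. The sources used here do not say what the letter stands for, and cells 6 and 13 are the most similar pair of the series. Ezh1 was present in 3 of the 4 cells with the letter F, against 16 of the other 45. Suz12 was present in all 4, against 30 of the other 45. No share over all tested genes was taken for presence by letter. Whether Cbx7 stands apart from genes at large in this split was therefore not tested.

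Taking PRC1 as a set, a RING gene and a PCGF member were present together in 9 of 49 cells (18.4%), and a RING, a PCGF and a CBX member in 3 (6.12%, interval 1.28 to 16.9), all Cd34-negative. Per cell, a median of 3 members (range 2 to 7) was present in Cd34-positive cells and 5 (range 0 to 9) in Cd34-negative cells. Genes with a read also differed, with medians of 5758 in Cd34-positive and 7466 in Cd34-negative cells. Among Mki67-positive cells the members present had medians of 5.5 in the 4 Cd34-positive and 5 in the 33 Cd34-negative cells. The cell with 0 was cell 9.

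Among themselves the members varied together little. Over the 36 pairs of the 9 tested members the correlation had a median of 0.08 and a range of -0.19 to 0.40, and 3 pairs were at or above 0.3. These were Ezh2 with Eed (0.40), Ezh1 with Rnf2 (0.38) and Ring1 with Cbx2 (0.35). Within the Cd34-negative cells these 3 pairs stood at 0.39, 0.36 and 0.33, and 6 pairs were at or above 0.3. The highest there was Ezh2 with Suz12 (0.43), and the others were Suz12 with Ring1 (0.40) and Bmi1 with Cbx2 (0.31). Without cells 9, 13, 23 and 34, Ezh2 with Suz12 stood at 0.38, Ezh1 with Rnf2 at 0.31, and the other 4 pairs just under 0.3 (0.288 to 0.298). Of the 9157 other tested genes, 193 ranked above Eed in likeness to Ezh2 and 182 above Rnf2 in likeness to Ezh1.

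The genes most like Ezh2 over the 49 cells were Prim1 (0.57), which encodes a primase subunit of DNA replication, Pkmyt1 (0.55), an inhibitory kinase of CDK1, Slbp (0.54), which binds histone mRNA, Clptm1 (0.54) and Yars2 (0.54), the mitochondrial tyrosyl-tRNA synthetase. Those most like Ezh1 were Cstf2t (0.61), Alas1 (0.57), the housekeeping enzyme that starts haem synthesis, Golph3l (0.57), Impa1 (0.56) and Smc5 (0.55), a subunit of the SMC5/6 complex of chromosome maintenance. The 2 sets share no gene, and with so many genes ranked over 49 cells the leading values are selected high ones.

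Other Polycomb genes were counted from lists by role. Of the 9 PRC2 partners 7 had a read in at least 10 cells, with a median difference of -0.13 by Cd34 and 0.29 by Klf1 (high minus low), and a median correlation with Mki67 of 0.03. Rbbp4, a histone-binding subunit shared with other complexes, was the most Mki67-linked (0.34) and was present in 95.9% of cells, at 167.6 ± 81.2 CPM where present. Aebp2 followed at 0.12, while Phf1 (-0.20) and Phf19 (-0.12), which recruit PRC2 to chromatin, were lowest and present in 12.2% and 10.2% of cells.

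Of the 18 further PRC1 genes 17 were measured, and 6 lay at or below -1 by Cd34 and 11 at or above 1 by Klf1, shares near the 40.8% and 54.1% of all tested genes. Kdm2b, which brings a variant PRC1 to unmethylated CpG islands, correlated with Mki67 at 0.34 and was present in 81.6% of cells, at 132.1 ± 80.3 CPM where present. L3mbtl2 followed at 0.29, and Cbx6 (-0.16) and Phc2 (-0.05) were lowest. Kdm2b had a Cd34-positive minus Cd34-negative difference of -2.89 and a Klf1 high minus low difference of 3.64, and L3mbtl2 -2.84 and 3.89. Of the 5 measured genes of opposing enzymes and the BAP1 complex, Kdm6b, which removes the PRC2 mark, had a read in every kept cell and the lowest correlation with Mki67 (-0.37), followed by Kdm6a at -0.19. Asxl1 (0.32) and Asxl2 (0.18), partners of BAP1, were highest. Kdm6b differed by 1.14 between Cd34-positive and Cd34-negative cells and by -1.97 between the high and low Klf1 tertiles.

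Genes of the cell cycle show the scale that the Mki67 axis could reach. The 6 mitosis genes had a median correlation with Mki67 of 0.68, led by Top2a (0.85) and Birc5 (0.79), with Ccnb1 (0.55) and Ccnb2 (0.46) lowest. The 6 E2F and G1/S genes had a median of 0.12, close to the median of 0.08 of the Polycomb members, with Rrm2 (0.36) and E2f2 (0.22) highest and Mcm2 and Mcm6 (0.05 each) lowest. By Klf1, high minus low, the G1/S genes had a median difference of 2.26, between Ring1 and Ezh2.

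**Figure D5:**
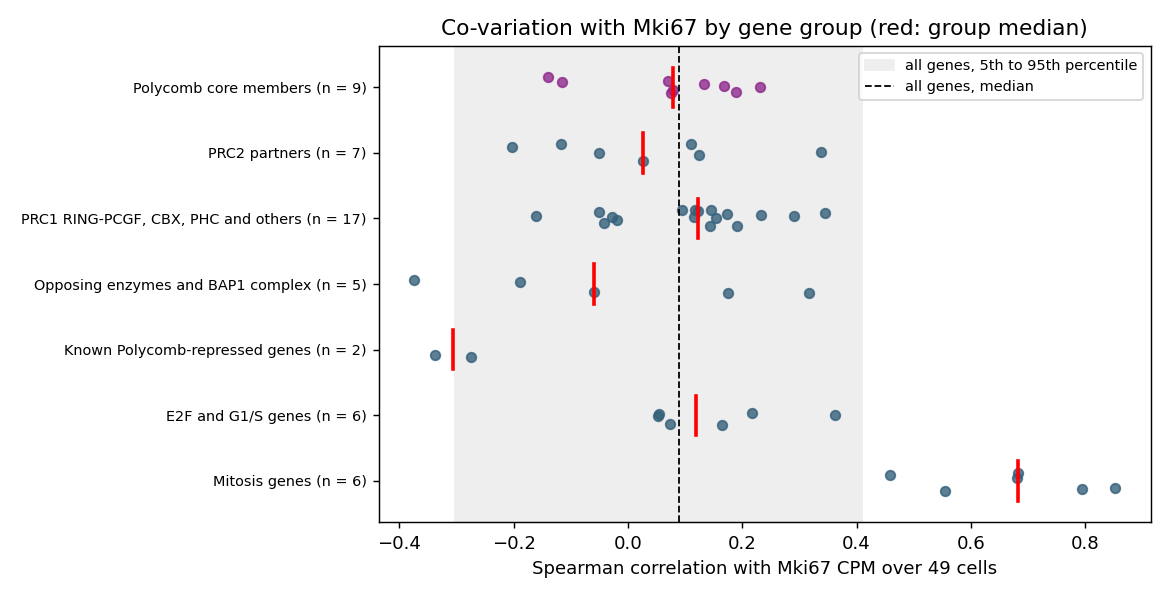
Spearman correlation with Mki67 over 49 cells (horizontal axis) for the measured genes of each group (rows), 1 point per gene, with group medians in red and all tested genes in grey. The Polycomb members (median 0.08) lie within the range of all genes, and the mitosis genes (median 0.68) lie to its right.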

How the data were processed

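Per the submitters' processing notes, the tools were Trim Galore 0.5.0, an adapter trimmer, and Salmon 0.03.1, a transcript quantifier, and the build GRCm38. The authors deposited expected counts per gene, not normalized, of which 4.23% were not whole. The sources used here name no transcript set, strand setting or filter. Exons of Ezh2, Eed, Suz12, Rnf2 and Cbx7 overlap those of an antisense gene by 100 to 261 bases, so reads there are uncertain.

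Counts were rounded and scaled to CPM per cell. Cells needed 50000 reads, 1000 genes and at most 20% mitochondrial reads, and 49 of 52 passed. No doublet caller was run on so few wells. Symbols came from GENCODE M21 (GRCm38) and matched 96.3% of rows. Exon length was the union of exons. Values were computed in Python 3.11.15 with pandas 2.3.3 and scipy 1.17.1. The code for differences and correlations was run on simulated counts with set changes by Cd34 class. Those counts held no shift shared by all genes, unlike these cells, so they give no error rate for the thresholds here.

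Genes averaging 5 CPM or more, with reads in 10 cells or more, were tested, meaning compared as a background. Cd34 and Mki67 classes were set at 10 CPM, and Klf1 classes by rank. A correlation was counted from 0.3 and a difference from 1. No p-value was computed. All members were named. Of each list the 2 measured genes with the highest and the 2 with the lowest correlation with Mki67 were named, and the 5 genes most like Ezh1 and Ezh2. The members, lists and cells set apart were chosen with earlier results of these data known.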

Additional observations from a re-analysis of the deposited data

Results flagged for a closer look

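Signal of the members appeared in a cell that entered no comparison above. Cell 5, left out for 28.3% mitochondrial reads, had 725.9 CPM of Ezh1 (223 reads), above the highest level of any kept cell, and 74.9 CPM of Ezh2 (23 reads), and 0 reads of the other 8 members. In cells 10 and 12, left out for 39692 and 32439 reads, the only member reads were 2 of Cbx7 in cell 12.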

How the results depend on the processing

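No paired analysis was possible because all cells form 1 group. The 9 differences of members at or past 1 kept their direction in 85 alternative values, of which 6 fell short of 1: Eed by Cd34 (-0.38 among Mki67-positive cells and -0.97 as log2(CPM + 10)), Ring1 by Klf1 (lowest 0.84), Ring1 by Mki67 (lowest 0.66) and Bmi1 by Mki67 (lowest 0.42). The 18 differences short of 1 gave 176 alternative values, of which 20 turned direction and 24 reached 1. The log2 ratio of Ezh1 to Ezh2 differed by 1.12 to 2.99 by Cd34, by -3.24 to -1.02 by Klf1 and by -2.66 to -0.95 by Mki67. Correlations moved by over 0.1 in some settings. That of Ezh2 with Mki67 was 0.34 in cells thinned to 500000 reads, 0.32 as Pearson's correlation of log2 levels and 0.011 in Cd34-negative cells. That of Ezh1 with Mki67 was below 0, at -0.036 and -0.049 in cells thinned to 85519 and 500000 reads and -0.056 in Cd34-negative cells. That of Ezh1 with Klf1 was -0.026 at 500000 reads and 0.28 with title codes in Y only. Ezh2 was present in 100% of the 4 Cd34-positive cells that were Mki67-positive. The cause was not tested. The restriction to Cd34-negative cells for Klf1, with and without cells 9, 13, 23 and 34, was chosen after seeing the data. Cd34 within the high Klf1 tertile and Mki67 within Cd34-negative cells had under 3 cells in a class, so no difference was taken. With size factors in place of total reads, the median difference of all genes was -0.57 by Cd34, 1.02 by Klf1 and 0.88 by Mki67. At 85519 reads 1 read exceeds 10 CPM, so depth limits presence there. Differences in thinned cells used classes set anew on the thinned reads, while the co-presence counts kept the original classes.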

Other observations

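Genes known as targets of Polycomb were scarce in these cells. Of 10 such genes 2 had a read in at least 10 cells, and both differed by more than 1 toward Cd34-positive cells, as 10.6% of all tested genes did. With 2 genes this says nothing of the list. Hoxa9, a homeobox gene of stem and progenitor cells, differed by 2.53 between Cd34-positive and Cd34-negative cells and by -1.36 between the high and low Klf1 tertiles, and was present in 40.8% of cells. Ebf1, the B lineage factor, differed by 1.07 and -1.80, but was present in only 5 cells (10.2%), at 29.4 ± 25.7 CPM where present. Their correlations with Mki67 were -0.27 and -0.34. Cdkn2a, the cell cycle inhibitor locus that Bmi1 is known to repress, was singled out after its values were seen, and had a read in 0 of 49 cells, which sets no limit on the cells that express it.

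The 3 Cd34-positive cells with Ezh1 at 10 CPM and Ezh2 below it held different sets of other members. Cell 27 had 138.1 CPM of Suz12 and 189.9 CPM of Cbx7, with 0 reads of Ring1. Cell 47 had 207.1 CPM of Rnf2 and 47.9 CPM of Bmi1, with 0 reads of Eed. Cell 32 had 84.6 CPM each of Suz12 and Rnf2, with 0 reads of Eed.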
